A study of Caenorhabditis elegans with 8 samples.

Results

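The 7 genes described here are Argonaute genes of *C. elegans*. *alg-1*, *alg-2* and *alg-5* encode Argonautes that bind microRNAs. *prg-1* and *prg-2* are the Piwi genes of the piRNA pathway, and *prg-2* is annotated as a pseudogene. *rde-1* and *ergo-1* encode Argonautes that bind primary siRNAs. All 7 were picked by their sequence names, F48F7.1, T07D3.7, T23D8.7, D2030.6, C01G5.2, K08H10.7 and R09A1.1, and are 7 of 46449 gene names. The rule uses no measured value, although earlier results of these data were known. The sperm-lineage Argonautes *alg-3* (T22B3.2) and *alg-4* (ZK757.3) serve only as a reference. The paper also counts these 2 among the primary Argonautes that bind siRNAs. All 7 genes passed the filter on low counts, none had a library at 0, and their expected counts were whole numbers within 0.01 in all 8 libraries.

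The libraries measure polyadenylated RNA of whole L4 hermaphrodites, each from a large pool of synchronized animals, with 2 biological replicates per group. The groups are *mut-16(pk710)* mutants (strain NL1810) cultured at 25ºC, the same strain cultured at 20ºC, wild-type (N2) animals cultured at 25ºC and wild-type animals cultured at 20ºC, and none received another agent. Animals at 25ºC reached the L4 stage and were harvested after about 39 h, and animals at 20ºC after about 56 h, so the effects of temperature and of harvest time cannot be told apart. The term heat stress is used below for this difference, and *mut-16* stands for one allele only.

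Argonaute proteins hold a small RNA and use it to find a complementary transcript. Primary Argonautes carry small RNAs cut from hairpins, from single-gene piRNA precursors or from double-stranded RNA, and for the piRNA and siRNA classes the first contact with a target recruits RNA-dependent RNA polymerases, which make secondary siRNAs for a different set of Argonautes. MUT-16 is the scaffold protein of the Mutator foci, perinuclear sites next to the P granules of germ cells in which secondary siRNAs are made. The Piwi and primary siRNA Argonautes act before that step, and the microRNA Argonautes act without it. The comparisons ask whether the mRNAs of these proteins differed with temperature, with loss of *mut-16*, or with both.

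Totals lay between 9914054 and 13227929 expected counts per library. The *mut-16* gene itself had 5.46 to 7.82 CPM in the 4 *mut-16* libraries, against 22.6 to 26.2 CPM in the 4 wild-type libraries, so its level matched the labels. Replicates differed less at 25ºC (median absolute log2 difference over genes of 0.13 for *mut-16* and 0.20 for wild-type) than at 20ºC (0.24 for *mut-16* and 0.25 for wild-type). CPM below are counts brought to a common library total and scaled by TMM, a correction for the makeup of each library. A gene was called changed at an adjusted p of at most 0.05 by the quasi-likelihood test of edgeR, adjusted over 13972 genes by Benjamini-Hochberg, and all adjusted p-values below are from that test unless DESeq2 is named.

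Heat stress up-regulated *prg-1* and down-regulated *prg-2* in wild-type L4s, while none of the 7 genes was called between *mut-16* mutants and wild-type at either temperature. In wild-type animals 2 of the 7 genes were called for heat stress, when 20.8% of all genes tested were. In *mut-16* mutants 1 of the 7 was called for heat stress, *prg-1*, when 12.2% of all genes were. For the *mut-16* mutation 0 of 7 were called at 20ºC, against 8.43% of all genes, and 0 of 7 at 25ºC, against 20.2%. DESeq2 also called 0 in both, and at an unadjusted p under 0.05 edgeR gave 0 of 7 genes at 20ºC and 1 at 25ºC, which was *ergo-1*. No member changed by more than 1 on the log2 scale in any comparison. The median absolute log2(fold change) of the 7 genes was 0.21 for heat stress in wild-type, 0.26 for heat stress in *mut-16*, 0.13 for the mutation at 20ºC and 0.11 for the mutation at 25ºC, beside 0.32, 0.27, 0.26 and 0.30 over all genes in the same order. Because RNA came from whole animals, fewer cells of a type and less RNA per cell cannot be told apart in any of these values.

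**Figure D1:**
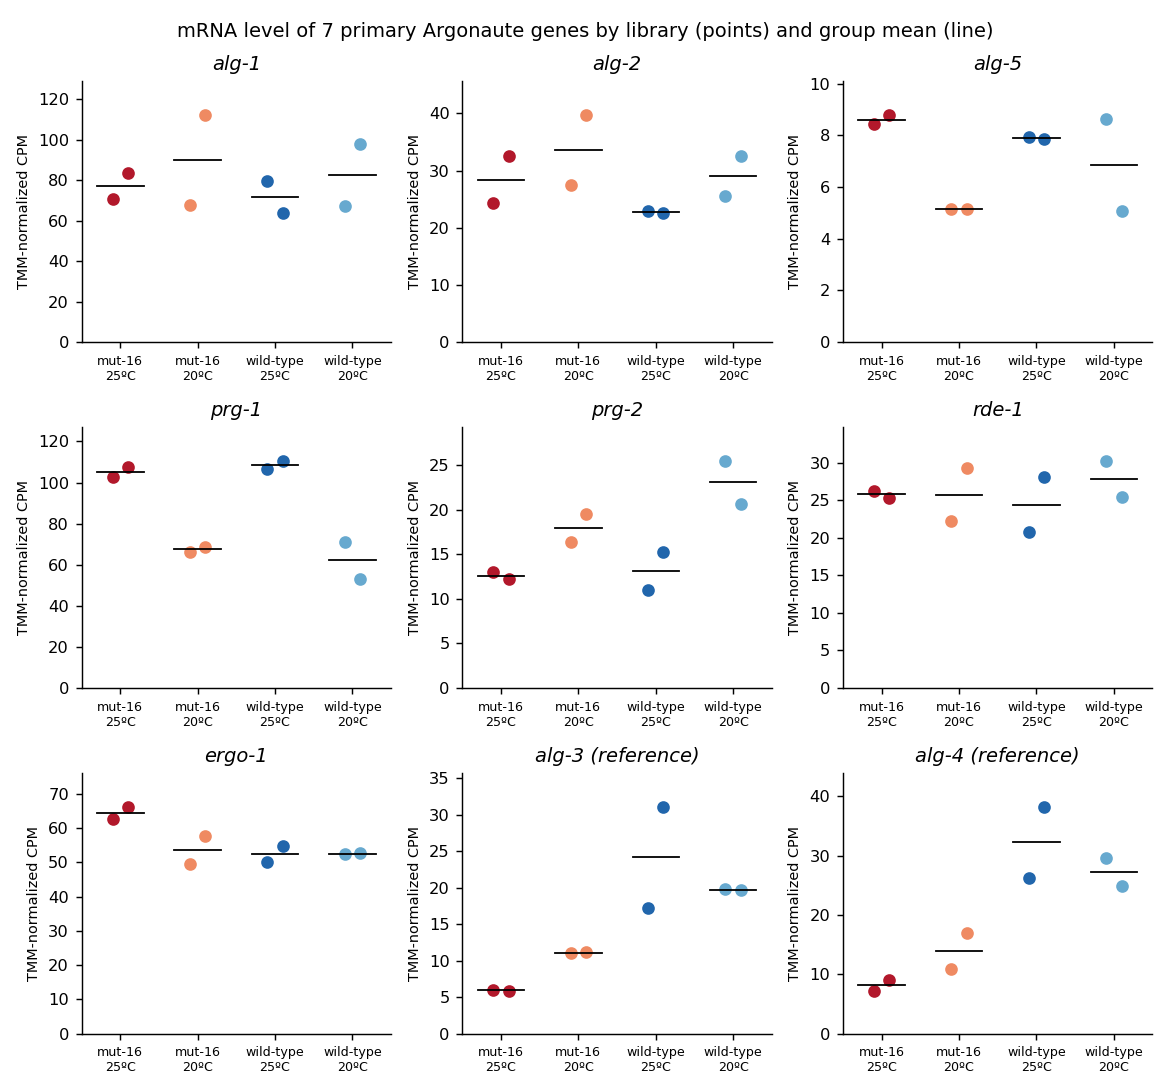
TMM-normalized CPM (vertical axis, from 0) of the 7 genes and of the reference genes *alg-3* and *alg-4* in each library, with 2 points per group and a line at the group mean. The 4 libraries at 25ºC lie above the 4 at 20ºC for *prg-1* (at least 103 CPM against at most 71.2) and below them for *prg-2* (at most 15.2 CPM against at least 16.4). Of all genes, 57.4% have no overlap between temperatures in wild-type and 58.2% in *mut-16* mutants.

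The microRNA Argonautes come first. ALG-1 and ALG-2 are closely related and carry most of the microRNAs of the soma, including those that time larval development. *alg-1* lies at chrX:13949110-13956261 on the plus strand (WBcel235, Ensembl release 115), and its exons together span 6696 bases. It had 70.8 and 83.5 CPM in *mut-16* L4s at 25ºC, 67.8 and 112 CPM in *mut-16* L4s at 20ºC, 79.4 and 63.6 CPM in wild-type at 25ºC and 67.3 and 98.0 CPM in wild-type at 20ºC. All 4 groups overlapped, and the 2 replicates at 20ºC stood further apart than any group means. Heat stress gave a log2(fold change) of −0.23 ± 0.22 (SE) in *mut-16* mutants and −0.21 ± 0.23 in wild-type, and the mutation gave 0.11 ± 0.23 at 25ºC and 0.13 ± 0.22 at 20ºC. None was called, with edgeR adjusted p between 0.58 and 0.79.

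*alg-2* lies at chrII:873212-879885 on the plus strand. It had 24.3 and 32.5 CPM in *mut-16* L4s at 25ºC, 27.5 and 39.7 CPM in *mut-16* L4s at 20ºC, 22.9 and 22.6 CPM in wild-type at 25ºC and 25.6 and 32.5 CPM in wild-type at 20ºC. Both wild-type libraries at 25ºC were the lowest of the 8, so that neither the heat stress comparison in wild-type nor the comparison of genotypes at 25ºC had overlapping libraries, as was the case for 57.4% and 67.3% of all genes in these comparisons. The differences were not called, at log2(fold change) −0.35 ± 0.20 (adjusted p = 0.26) for heat stress in wild-type and 0.32 ± 0.20 (adjusted p = 0.30) for the mutation at 25ºC. Over both genotypes the mean effect of temperature was −0.30 ± 0.14 (adjusted p = 0.15), and over both temperatures the mean effect of the mutation was 0.27 ± 0.14 (adjusted p = 0.20).

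*alg-1* and *alg-2* had their highest levels in the same library, replicate 2 of *mut-16* mutants at 20ºC, and in wild-type at 20ºC both were higher in replicate 2. Per kilobase of exon, *alg-1* held 60.4% to 68.2% of the summed level of the pair. That share was 61.3% and 64.3% in *mut-16* L4s at 25ºC, 60.4% and 63.6% in *mut-16* L4s at 20ºC, 63.5% and 68.2% in wild-type at 25ºC and 62.0% and 65.1% in wild-type at 20ºC. The shares of all 4 groups overlapped. The pair is similar in sequence, and how reads shared by the 2 genes were divided between them was not tested.

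ALG-5 is the microRNA Argonaute of the germline and associates with P granules. *alg-5* lies at chrI:9989802-9993976 on the plus strand and had the fewest counts of the 7 genes, 52 to 118 per library. It had 8.43 and 8.79 CPM in *mut-16* L4s at 25ºC, 5.17 and 5.17 CPM in *mut-16* L4s at 20ºC, 7.96 and 7.86 CPM in wild-type at 25ºC and 8.65 and 5.06 CPM in wild-type at 20ºC. The *mut-16* libraries separated by temperature, as did those of 58.2% of all genes, whereas the wild-type libraries at 20ºC spanned most of the range of the gene. In *mut-16* mutants the log2(fold change) of 0.74 ± 0.25 under heat stress was not called (adjusted p = 0.069), although its unadjusted p was 0.0099. In wild-type it was 0.20 ± 0.24 (adjusted p = 0.64), and the difference between the 2 heat effects was not called either (0.54 ± 0.35, adjusted p = 0.41). Without replicate 2 of wild-type at 20ºC the wild-type effect had a log2(fold change) of −0.13, and without replicate 1 it was 0.67. With all libraries kept, total count scaling gave −0.055. *alg-5* overlaps the neuronal transcription factor gene *cfi-1* on the opposite strand, which had only 11 to 38 counts per library and was called in none of the comparisons.

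PRG-1 is the Piwi protein of the worm germline and is needed for piRNAs to accumulate. *prg-1* lies at chrI:7585329-7588367 on the minus strand, with 9 exons. It had 103 and 107 CPM in *mut-16* L4s at 25ºC, 66.3 and 68.7 CPM in *mut-16* L4s at 20ºC, 107 and 111 CPM in wild-type at 25ºC and 71.2 and 52.9 CPM in wild-type at 20ºC, from 596 to 1442 counts per library. All libraries at 25ºC were above all libraries at 20ºC, and at each temperature the 2 genotypes lay close to each other. Libraries of the 2 temperatures did not overlap for 57.4% of all genes in wild-type and 58.2% in *mut-16* mutants. The share of genes that separate over both genotypes at once was not computed. In wild-type, heat stress raised *prg-1* 1.75-fold (95% interval 1.40 to 2.18, log2(fold change) 0.81 ± 0.15, adjusted p = 0.0016). In *mut-16* mutants it was raised 1.56-fold (95% interval 1.25 to 1.94, log2(fold change) 0.64 ± 0.15, adjusted p = 0.011). The wild-type result was called in all 15 alternatives tried. In the mutant the direction was kept in all 15 and the call in 11. It was lost when any one of the 4 *mut-16* libraries was left out, with adjusted p of 0.055 to 0.11 and a log2(fold change) between 0.61 and 0.66.

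The mutation changed *prg-1* at neither temperature by more than the test could separate from 0. At 25ºC the log2(fold change) was −0.05 ± 0.15 (adjusted p = 0.86, 95% interval −0.36 to 0.27), and at 20ºC it was 0.12 ± 0.15 (adjusted p = 0.68, 95% interval −0.20 to 0.44). The interaction, which subtracts the wild-type heat effect from that of the mutant, was −0.17 ± 0.21 (adjusted p = 0.71). For the interaction 0 of the 7 genes were called, against 3.08% of all genes, with 0 at an unadjusted p under 0.05 in edgeR and 0 called by DESeq2. *prg-1* overlaps a gene on the opposite strand, D2030.12, which had 4 to 22 counts per library and no call.

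PRG-1 is made in germ cells, so germline markers are given beside it. The 13 germline markers (among them *pgl-1*, *glh-1* and *gld-1*) summed to 403 and 428 CPM in *mut-16* L4s at 25ºC, 398 and 435 CPM in *mut-16* L4s at 20ºC, 347 and 447 CPM in wild-type at 25ºC and 584 and 421 CPM in wild-type at 20ºC. None of them was at 0 in any library. For heat stress in wild-type 12 of the 13 had lower values at 25ºC and 1 was called, as down-regulated, with a median log2(fold change) of −0.31. For heat stress in *mut-16* 8 of the 13 had lower values and 0 were called in edgeR, with a median of −0.06. Markers of oocytes and eggshell rose with heat in *mut-16* mutants (13 of 13 called up-regulated, median log2(fold change) 1.09), whereas in wild-type 1 of 13 was called up-regulated and 11 had lower values. Of 13 sperm markers, 11 had lower values with heat in *mut-16* mutants (6 called down-regulated, median −0.66). In wild-type 11 of them had higher values (4 called up-regulated, median 0.50). Of the sperm markers 1 was at 0 in at least 1 library. Of all genes 12.2% and 20.8% were called in these comparisons. At 20ºC all 13 markers of oocytes and eggshell had lower values in *mut-16* mutants than in wild-type (8 called, median −0.87, beside 8.43% of all genes called). The part of these markers in the *prg-1* result was not tested.

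The sequence of *prg-2* closely resembles that of *prg-1*, and Ensembl release 115 annotates it as a pseudogene, at chrIV:6526962-6529802 on the minus strand with 8 exons and no overlapping gene. Its levels went the opposite way to those of *prg-1*. *prg-2* had 13.0 and 12.2 CPM in *mut-16* L4s at 25ºC, 16.4 and 19.6 CPM in *mut-16* L4s at 20ºC, 11.03 and 15.2 CPM in wild-type at 25ºC and 25.5 and 20.7 CPM in wild-type at 20ºC, from 104 to 333 counts per library. The 4 libraries at 25ºC were all below the 4 at 20ºC. Within wild-type 57.4% of all genes had no overlap between temperatures, and within *mut-16* mutants 58.2%. In wild-type the level at 25ºC was 0.570 times that at 20ºC (95% interval 0.430 to 0.756, log2(fold change) −0.81 ± 0.19, adjusted p = 0.0079). This call held in 14 of 15 alternatives and was lost without replicate 1 of wild-type at 25ºC (log2(fold change) −0.61, adjusted p = 0.10). In *mut-16* mutants the log2(fold change) was −0.52 ± 0.19 and was not called (adjusted p = 0.097). The interaction of 0.29 ± 0.27 (adjusted p = 0.59) gave no call for a difference between the genotypes.

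At 20ºC *prg-2* was the one member whose libraries did not overlap between the genotypes, with lower values in *mut-16* mutants (log2(fold change) −0.36 ± 0.18, adjusted p = 0.27). Libraries did not overlap for 46.6% of all genes in that comparison. At 25ºC the value was −0.06 ± 0.20 (adjusted p = 0.86), with overlap.

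**Figure D2:**
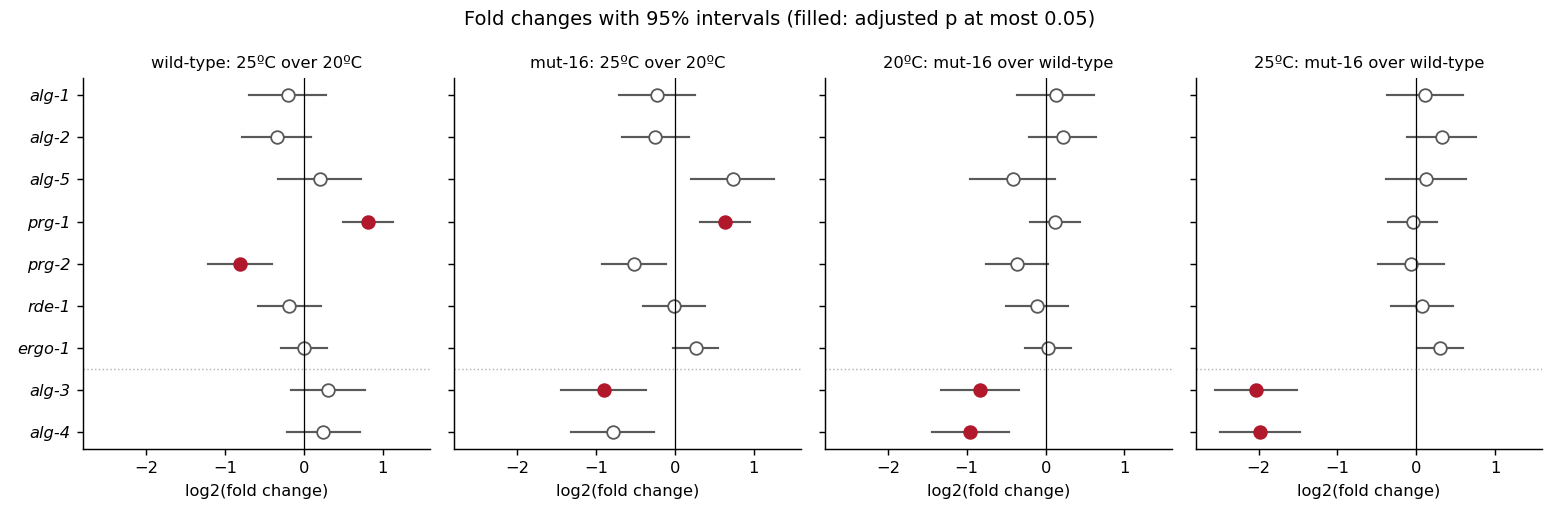
The log2(fold change) of each gene (horizontal axis) with its 95% interval in the 4 comparisons, with filled points where edgeR's adjusted p was at most 0.05 and the reference genes below the dotted line. *prg-1* lies to the right of 0 in both heat stress panels (0.81 in wild-type and 0.64 in *mut-16* mutants), and no member is filled in the panels for the mutation.

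With both genotypes averaged, 2 of the 7 genes were called for temperature, against 24.6% of all genes, and they were the Piwi genes. *prg-1* had a mean log2(fold change) of 0.72 ± 0.10 (adjusted p = 0.00018) and *prg-2* one of −0.66 ± 0.13 (adjusted p = 0.0024), and both calls held in all 14 alternatives. Of all genes tested, 91.3% had a lower mean temperature effect than *prg-1* and 7.36% a lower one than *prg-2*. *alg-5* was next, at 0.47 ± 0.17 (adjusted p = 0.065). With both temperatures averaged, 0 of 7 genes were called for the mutation, against 22.2% of all genes, with 0 at an unadjusted p under 0.05 in edgeR and 0 called by DESeq2. The 95% intervals of these 7 mean effects of the mutation lay between −0.52 and 0.58. *alg-2* was called there only when every gene with at least 1 count was kept (log2(fold change) 0.32, adjusted p = 0.047).

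The ratio of the 2 Piwi genes within a library does not depend on how libraries are scaled. Per kilobase of exon, *prg-1* was 7.50 and 8.33 times *prg-2* in *mut-16* L4s at 25ºC, 3.83 and 3.33 times in *mut-16* L4s at 20ºC, 9.17 and 6.89 times in wild-type at 25ºC and 2.65 and 2.42 times in wild-type at 20ºC. The 4 ratios at 25ºC were all above the 4 at 20ºC, and how often other gene pairs separate in this way was not tested. At 20ºC both *mut-16* ratios were above both wild-type ratios, and at 25ºC the genotypes overlapped. Reads shared by the 2 genes would have been divided by the quantification, and this was not tested.

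**Figure D3:**
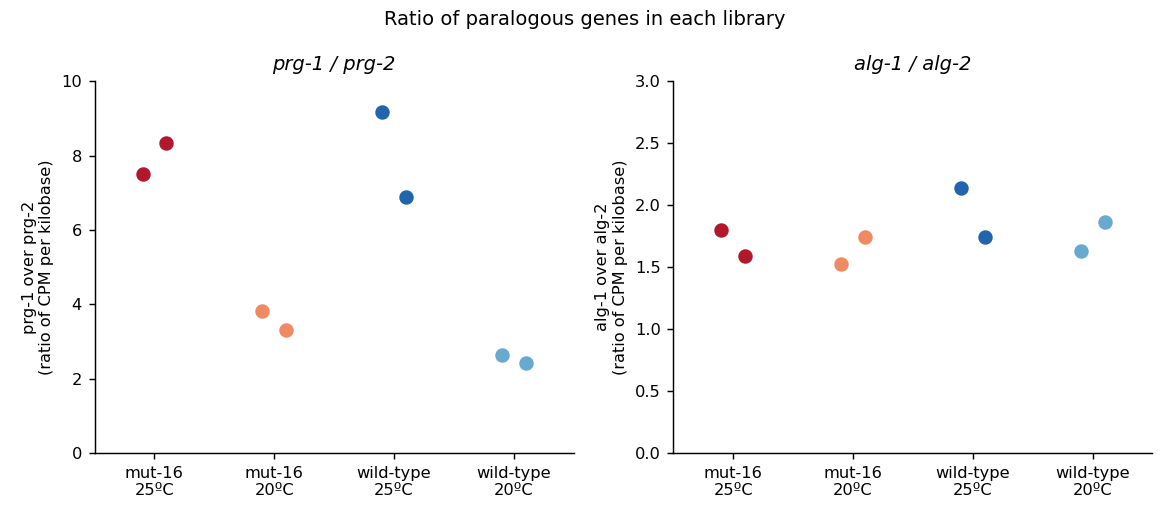
Ratio of *prg-1* to *prg-2* and of *alg-1* to *alg-2* in each library (vertical axis, CPM per kilobase of exon of the first gene over the second), with 2 points per group. The Piwi ratio is 6.89 to 9.17 at 25ºC and 2.42 to 3.83 at 20ºC, while the ratio of the microRNA Argonautes stays between 1.52 and 2.14.

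The 3 genes whose pattern was closest to that of *prg-1* over the 8 libraries were *ltah-1.1*, *cyp-34A8* and K04B12.2, with a root mean square difference in centred log2 CPM of 0.081, 0.085 and 0.091 among 13100 genes searched. For *prg-2* they were F35D2.1, R07E4.1 and *prde-1*, at 0.11, 0.14 and 0.14. *prg-1* and *prg-2* themselves each varied by 0.38 on this measure. *prde-1* had 3.60 and 3.87 CPM in *mut-16* L4s at 25ºC, 4.57 and 5.82 CPM in *mut-16* L4s at 20ºC, 3.08 and 4.24 CPM in wild-type at 25ºC and 6.50 and 4.62 CPM in wild-type at 20ºC. It was called in none of the comparisons, and its mean temperature effect was −0.54 ± 0.19 (adjusted p = 0.057).

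RDE-1 receives siRNAs cut from foreign double-stranded RNA and is required for the response to it. *rde-1* lies at chrV:9987916-9991642 on the minus strand, with no overlapping gene. It had 26.3 and 25.2 CPM in *mut-16* L4s at 25ºC, 22.2 and 29.3 CPM in *mut-16* L4s at 20ºC, 20.8 and 28.0 CPM in wild-type at 25ºC and 30.2 and 25.4 CPM in wild-type at 20ºC. Libraries overlapped in all 4 comparisons. The 4 log2(fold change) values were −0.01 ± 0.18 for heat stress in *mut-16*, −0.19 ± 0.18 for heat stress in wild-type, 0.07 ± 0.18 for the mutation at 25ºC and −0.11 ± 0.18 for the mutation at 20ºC, with adjusted p between 0.54 and 0.99. Over both temperatures the 95% interval of the mean effect of the mutation was −0.30 to 0.26.

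ERGO-1 carries endogenous primary siRNAs of oocytes and embryos that direct the silencing of duplicated and poorly conserved genes. *ergo-1* lies at chrV:1008803-1018352 on the plus strand. It had 62.8 and 66.3 CPM in *mut-16* L4s at 25ºC, 49.7 and 57.7 CPM in *mut-16* L4s at 20ºC, 50.1 and 54.7 CPM in wild-type at 25ºC and 52.6 and 52.7 CPM in wild-type at 20ºC. The *mut-16* libraries at 25ºC were above the other 6, which lay within 49.7 to 57.7 CPM. Libraries did not overlap for 58.2% of all genes for heat stress in *mut-16* and for 67.3% for the mutation at 25ºC. At 25ºC the log2(fold change) for the mutation was 0.30 ± 0.13 and was not called (unadjusted p = 0.042, adjusted p = 0.14). It was called with total count scaling (0.47, adjusted p = 0.044, when the median of all genes was 0.18) and with the 2 groups at 25ºC fitted alone (0.28, adjusted p = 0.036). Heat stress in *mut-16* mutants gave 0.26 ± 0.13 (adjusted p = 0.24) and heat stress in wild-type −0.01 ± 0.13 (adjusted p = 0.99), and the difference between them was 0.27 ± 0.19 (adjusted p = 0.47).

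The exons of *ergo-1* overlap those of *pei-2* (R09A1.2) on the opposite strand. The libraries were directional, but whether the counting used the strand is not given in the sources used here, and exchange of reads between the 2 genes was not tested. *pei-2* had 8.26 and 6.85 CPM in *mut-16* L4s at 25ºC, 6.16 and 6.55 CPM in *mut-16* L4s at 20ºC, 10.8 and 12.8 CPM in wild-type at 25ºC and 9.41 and 8.97 CPM in wild-type at 20ºC. It was lower in *mut-16* mutants at 25ºC (log2(fold change) −0.65, adjusted p = 0.030), where *ergo-1* had the higher values, and its values were well under those of *ergo-1* in every library.

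The order of the 7 genes by level was compared per kilobase of exon. *prg-1* was the highest in all 4 groups, at 39.4 ± 1.19 CPM per kilobase (SD, n = 2) in *mut-16* mutants at 25ºC, 25.3 ± 0.638 in *mut-16* L4s at 20ºC, 40.7 ± 1.01 in wild-type at 25ºC and 23.3 ± 4.86 in wild-type at 20ºC. *ergo-1* was second, and its libraries did not overlap with those of *prg-1* in any group. *alg-1* came next, and overlapped with *ergo-1* at 20ºC in both genotypes but not at 25ºC. *alg-5* was the lowest in all 4 groups, at 2.77, 1.66, 2.55 and 2.21 CPM per kilobase in the same order of groups, with no overlap with its neighbour. *rde-1*, *alg-2* and *prg-2* lay between them, and most neighbours among these overlapped. *prg-2* was the sixth of the genes in 3 groups and the fourth in wild-type at 20ºC.

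**Figure D4:**
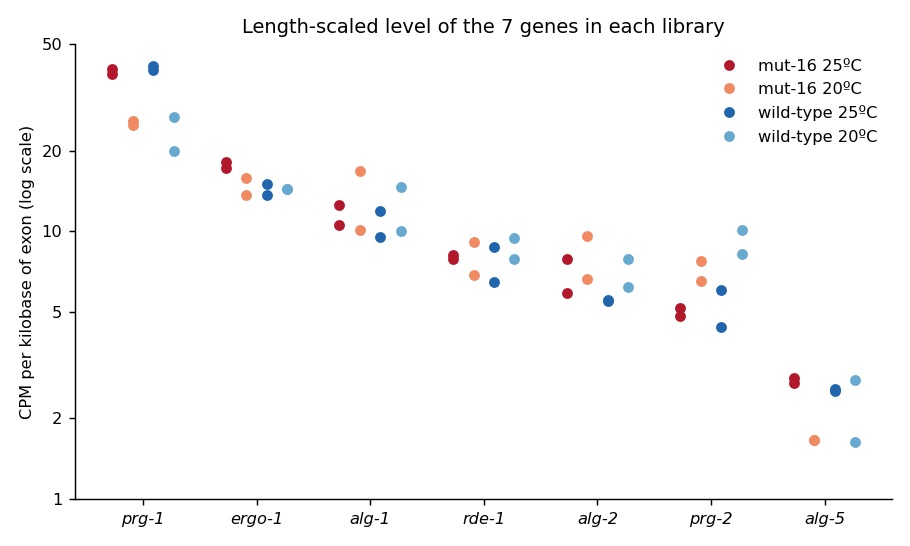
CPM per kilobase of exon (log scale) of the 7 genes in each of the 8 libraries, coloured by group. *prg-1* is the highest of the 7 in every group (group means of 23.3 to 40.7) and *alg-5* the lowest (1.66 to 2.77).

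The replicates of wild-type at 20ºC differed for several of the genes at once. Replicate 1 was higher than replicate 2 for *alg-5* (by 0.75 in log2), *prg-1* (0.43), *prg-2* (0.30) and *rde-1* (0.25), and lower for *alg-1* (−0.54) and *alg-2* (−0.34), while *ergo-1* differed by −0.0026. In the same replicate the germline markers summed to 584 CPM and the oocyte markers to 574 CPM, against 421 and 357 CPM in replicate 2. In *mut-16* mutants at 25ºC the widest difference between replicates was that of *alg-2* (−0.42), and the other 6 genes stayed closer. The part of the markers in these differences was not tested.

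The reference genes fell with the mutation. ALG-3 and ALG-4 act in the male germline and during sperm development in hermaphrodites. *alg-3* had a log2(fold change) of −2.04 ± 0.24 for the mutation at 25ºC (adjusted p = 7.3e-05) and −0.83 ± 0.23 at 20ºC (adjusted p = 0.038), and *alg-4* −1.98 ± 0.24 (adjusted p = 7.8e-05) and −0.95 ± 0.23 (adjusted p = 0.018) for the same comparisons. For heat stress in *mut-16* mutants *alg-3* fell as well (−0.90 ± 0.25, adjusted p = 0.031), and *alg-4* had −0.79 ± 0.24 without a call (adjusted p = 0.051). For heat stress in wild-type *alg-3* had 0.30 ± 0.22 (adjusted p = 0.37) and *alg-4* 0.25 ± 0.22 (adjusted p = 0.48). The interaction was called for neither *alg-3* (adjusted p = 0.067) nor *alg-4* (adjusted p = 0.11), so a difference in heat effect between the genotypes was not shown. For the mutation, the 7 genes had values of −0.06 to 0.32 at the higher temperature and of −0.42 to 0.22 at the lower. Sperm markers fell with the mutation at 25ºC (11 of 13 called, median log2(fold change) −2.08, beside 20.2% of all genes called) together with *alg-3* and *alg-4*. The markers also fell with the mutation at 20ºC (6 of 13 called, median −0.83, beside 8.43% of all genes). With heat stress in *mut-16* mutants 6 of 13 were called as lower (median −0.66, beside 12.2%). The part of these markers in the fall of *alg-3* and *alg-4* was not tested.

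**Figure D5:**
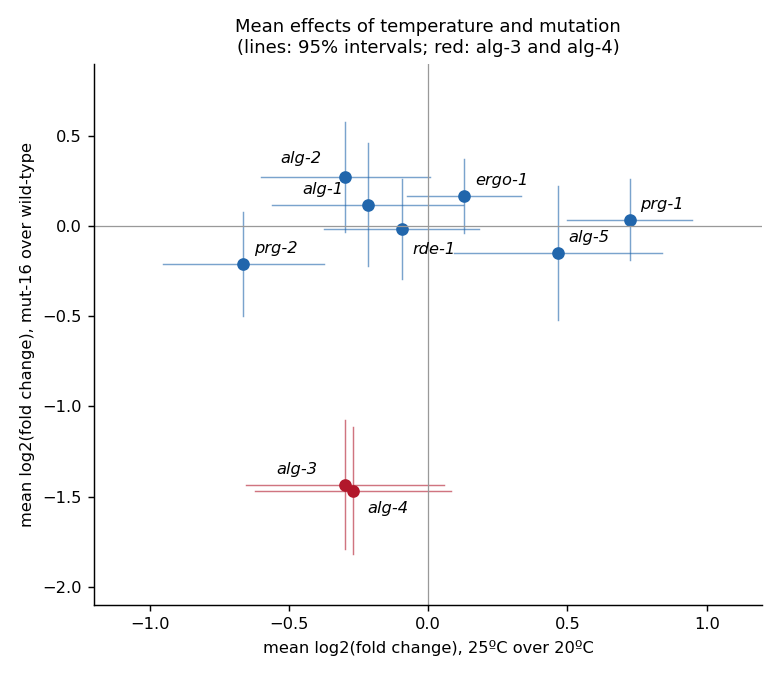
Mean log2(fold change) for temperature over both genotypes (horizontal axis) and for the mutation over both temperatures (vertical axis), with lines for 95% intervals. The 7 genes (blue) spread along the temperature axis, between −0.66 for *prg-2* and 0.72 for *prg-1*, and within −0.21 to 0.27 on the mutation axis, where *alg-3* and *alg-4* (red) lie at −1.43 and −1.47.

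Other genes of the same pathways were counted from fixed lists. Of 15 microRNA pathway genes tested, none rose and 2 fell with heat stress in wild-type, and 0 changed with heat stress in *mut-16* mutants, beside 20.8% and 12.2% of all genes called. The medians were −0.25 and −0.07 log2(fold change), beside 0.00 for all genes in both. The mutation raised 3 of the 15 at 25ºC, where 20.2% of all genes were called, and 0 at 20ºC, where 8.43% were, with medians of 0.25 and 0.10 beside 0.00 and −0.05 for all genes. With both temperatures averaged, the mutation raised 3 of the 15 and lowered 0, beside 22.2% of all genes called. *ebax-1*, which encodes a substrate receptor of a ubiquitin ligase, had a mean log2(fold change) of 0.47 ± 0.11 with the mutation (adjusted p = 0.0065). *vig-1*, a component of the RNA-induced silencing complex, had one of 0.33 ± 0.09 (adjusted p = 0.015). *drsh-1*, the Drosha nuclease that cuts primary microRNA transcripts, was higher in *mut-16* mutants at 25ºC (0.73 ± 0.19, adjusted p = 0.014). *xrn-2*, an exonuclease that degrades microRNAs released from Argonautes, fell with temperature over both genotypes (−0.44 ± 0.09, adjusted p = 0.0036). *ebax-1* fell there as well (−0.39 ± 0.11, adjusted p = 0.019). In that comparison 3 of the 15 were called, all down-regulated, beside 24.6% of all genes.

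Of 22 piRNA pathway genes tested, 1 rose and 0 fell with heat stress in wild-type and likewise in *mut-16* mutants, and the gene was *pid-2* in both. Of all genes 20.8% and 12.2% were called in these comparisons. PID-2 acts after piRNAs have found their targets. *pid-2* had 13.8 and 13.6 CPM in *mut-16* L4s at 25ºC, 4.27 and 4.37 CPM in *mut-16* L4s at 20ºC, 14.7 and 15.1 CPM in wild-type at 25ºC and 7.96 and 6.84 CPM in wild-type at 20ºC. Like *prg-1*, it was higher in every library at 25ºC than in any at 20ºC. The log2(fold change) was 1.66 ± 0.19 in *mut-16* mutants (adjusted p = 4.8e-05) and 1.01 ± 0.18 in wild-type (adjusted p = 0.0011). Libraries of the 2 temperatures did not overlap for 58.2% and 57.4% of all genes in these genotypes. At 20ºC it was lower in *mut-16* mutants than in wild-type (−0.78 ± 0.20, adjusted p = 0.026).

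The mutation raised 1 of the 22 piRNA pathway genes at each temperature, *parn-1*, the exonuclease that trims the 3′ ends of piRNAs, and lowered 1 at 20ºC, *pid-2*. Of all genes 20.2% were called at 25ºC and 8.43% at 20ºC. *parn-1* had 9.90 and 10.6 CPM in *mut-16* L4s at 25ºC, 11.3 and 8.08 CPM in *mut-16* L4s at 20ºC, 2.76 and 4.24 CPM in wild-type at 25ºC and 4.06 and 2.84 CPM in wild-type at 20ºC. The log2(fold change) was 1.53 ± 0.27 at 25ºC (adjusted p = 0.0015) and 1.47 ± 0.27 at 20ºC (adjusted p = 0.0040), and temperature gave no call. With both temperatures averaged, 1 of the 22 was called as higher in *mut-16* mutants and 3 as lower, beside 22.2% of all genes called. The higher one was *parn-1*, and the lower ones were *pid-2* (−0.45, adjusted p = 0.023), *tofu-2* (−0.41, adjusted p = 0.039) and *pid-3* (−0.40, adjusted p = 0.042). *tofu-2* encodes part of the nuclease that trims piRNA precursors at the 5′ end. *pid-3* encodes a subunit of the PETISCO complex that binds the precursors. The list medians lay between −0.05 and 0.01 log2(fold change) in the 4 comparisons, beside −0.05 to 0.00 for all genes.

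Of 24 genes of the primary siRNA pathway, 0 rose and 1 fell with heat stress in wild-type, 0 changed with heat stress in *mut-16* mutants, 0 with the mutation at 20ºC, and 1 rose with the mutation at 25ºC. The shares of all genes called were 20.8%, 12.2%, 8.43% and 20.2% in the same order. The medians were −0.08, 0.05, 0.02 and 0.14 log2(fold change) in that order, beside 0.00, 0.00, −0.05 and 0.00 for all genes. The gene that rose was *eri-6*, part of a helicase needed for the siRNAs that ERGO-1 binds. *eri-6* had 10.3 and 10.1 CPM in *mut-16* L4s at 25ºC, against 6.58 and 5.13 CPM in wild-type at 25ºC, and 9.34 and 8.00 CPM in *mut-16* L4s at 20ºC, against 5.74 and 6.22 CPM in wild-type at 20ºC. Its mean log2(fold change) with the mutation was 0.67 ± 0.15 (adjusted p = 0.0046). For *eri-7*, on the same list, the mutation gave −0.56 ± 0.28 at 20ºC (adjusted p = 0.25) and 0.12 ± 0.28 at 25ºC (adjusted p = 0.82). The paper cites earlier work in which loss of MUT-16-dependent small RNAs lowered trans-spliced *eri-6/7* mRNA. The level of that trans-spliced mRNA was not tested here. The gene that fell was *gtsf-1*, which encodes a cofactor for the production of the siRNAs that ERGO-1 binds (−0.93 ± 0.26 for heat stress in wild-type, adjusted p = 0.020). *dcr-1*, which encodes Dicer, and the small RNA methyltransferase gene *henn-1* each stand on 2 of these lists.

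For comparison, of 12 secondary Argonautes tested, 3 were called for heat stress in wild-type (1 up-regulated and 2 down-regulated), 1 for heat stress in *mut-16*, 0 for the mutation at 20ºC and 2 for the mutation at 25ºC (1 in each direction), beside 20.8%, 12.2%, 8.43% and 20.2% of all genes. Genes called in at least 1 comparison included *sago-2*, with a mean log2(fold change) for temperature of −0.81 ± 0.10 (adjusted p = 3.1e-05), *sago-1*, with 0.58 ± 0.11 (adjusted p = 0.0015), *vsra-1*, with a mean of 0.75 ± 0.12 for the mutation (adjusted p = 0.00049), and *wago-10*, with −1.21 ± 0.33 for the mutation at 25ºC (adjusted p = 0.020). No test of a difference between the primary and the secondary Argonautes was made.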

How the data were processed

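The 8 mRNA-seq libraries of L4 animals were used. According to the study's methods, the authors trimmed reads with Cutadapt and mapped them to the WS258 genome with HISAT2 and to the transcriptome with Salmon. The deposited files hold 1 value per gene and their names mark the values as summed. As most are whole numbers, none is below 0 and totals differ between libraries, the values that the authors deposited were taken to be unscaled expected counts from Salmon, summed over the transcripts of each gene. Names were matched to Ensembl release 115 (WBcel235) for 99.59% of rows, and 4 groups of 2 libraries were formed from the labels.

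After rounding, genes passing filterByExpr (minimum count 10, minimum total 15) were scaled by TMM and fitted together over all 8 libraries with edgeR 4.0.16 in R 4.3.3 (quasi-likelihood, no replicate block), with Benjamini-Hochberg adjustment within each comparison. The biological coefficient of variation was 0.124. Per-length levels divide CPM by the union of annotated exons. Likeness of pattern used log2 CPM with a prior count of 2. Intervals are at 95%. Replicates are labelled as biological. For 2 libraries per group the spread of a gene is taken largely from other genes.

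The genes named are the 7 members, the reference genes, *mut-16*, the 3 genes most alike to each called member, and from each pathway list up to 4 called genes with the smallest adjusted p. The overlap partners *pei-2*, *cfi-1* and D2030.12 were named after their values were seen. Members and lists were chosen with earlier results of these data known. The listed names *ntl-1*, *tofu-3*, *pics-1*, *wago-3* and, among sperm markers, *fer-14* matched no row. The fit was tested on simulated data with 13972 genes. For heat stress in *mut-16* it recovered 88 of 100 genes with a log2 change of 1 and 16 of 100 with a change of 0.5. Alternatives were DESeq2 1.42.0, RLE or total count scaling, a fit with a replicate block, a fit of only the groups compared, filters of at least 1 count overall or 10 in each library, and leaving out each library in turn. Deviations of same-numbered libraries correlated between −0.16 and 0.07 over genes, and the numbers were therefore not used as pairs.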

Additional observations from a re-analysis of the deposited data

How the results depend on the processing

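Of 714 alternative values for the 7 genes, 641 kept their direction and side of the threshold, 53 changed sign, 15 were called where the reported value was not, and 5 lost a call. None of the 53 was called before or after. For *prg-1* and *prg-2* the direction of both heat effects and of the mean temperature effect held in all alternatives. The causes were not tested. Counting noise is widest for *alg-5*. With 2 libraries per group, changes near 0.5 on the log2 scale were mostly missed in the simulated data, which had fewer changed genes and the same dispersion for every gene.

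The number of members called for heat stress in *mut-16* was 3 with all genes of at least 1 count and with only the groups compared, where *alg-5* and *prg-2* joined *prg-1*, and 0 to 3 with a library left out. For heat stress in wild-type it was 1 to 2 with a library left out. For the mutation at 25ºC it was 1 with total count scaling and with only the groups compared (*ergo-1*), and for the mean effect of the mutation 1 with all genes of at least 1 count (*alg-2*). *alg-5* and *prg-2* were also called for heat stress in *mut-16* when either wild-type library at 20ºC was left out. For the mean temperature effect *alg-5* was called with all genes of at least 1 count (0.46) and without replicate 1 of wild-type at 20ºC (0.70), and *alg-2* with total count scaling (−0.46) and without replicate 1 of *mut-16* at 20ºC (−0.42). The replicate block changed no count of members called (2 for heat stress in wild-type, 1 in *mut-16*) and turned one uncalled sign, *rde-1* for heat stress in *mut-16* (0.0046).

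With total count scaling, all genes together had a median log2(fold change) of −0.25 for heat stress in wild-type, 0.18 for the mutation at 25ºC, 0.19 for the interaction and −0.18 for the mean temperature effect. The members' values were then −0.055 for *alg-5* in heat stress in wild-type, 0.13 for *prg-1* and 0.11 for *prg-2* in the mutation at 25ºC, 0.15 for *alg-1* and 0.014 for *prg-1* in the interaction, −0.030 for *ergo-1* in the mean temperature effect and 0.069 for *rde-1* in the mean effect of the mutation. That last value was 0.0029 with DESeq2, 0.00016 with RLE scaling and 0.033 with all genes of at least 1 count.

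With each library left out in turn, these uncalled values crossed 0. Heat stress in wild-type ranged from −0.43 to 0.082 for *alg-1*, −0.13 to 0.67 for *alg-5*, −0.42 to 0.0048 for *rde-1* and −0.072 to 0.052 for *ergo-1*. Heat stress in *mut-16* ranged from −0.54 to 0.18 for *alg-1*, −0.48 to 0.039 for *alg-2* and −0.19 to 0.21 for *rde-1*. The mutation at 20ºC ranged from −0.23 to 0.46 for *alg-1*, −0.022 to 0.45 for *alg-2*, −0.70 to 0.10 for *alg-5*, −0.040 to 0.42 for *prg-1*, −0.28 to 0.095 for *rde-1* and −0.031 to 0.13 for *ergo-1*. The mutation at 25ºC ranged from −0.041 to 0.27 for *alg-1*, −0.078 to 0.0086 for *prg-1*, −0.27 to 0.19 for *prg-2* and −0.13 to 0.31 for *rde-1*. The interaction ranged from −0.33 to 0.37 for *alg-1*, −0.13 to 0.37 for *alg-2*, −0.43 to 0.026 for *prg-1* and −0.018 to 0.42 for *rde-1*. The mean temperature effect ranged from −0.21 to 0.015 for *rde-1*. The mean effect of the mutation ranged from −0.045 to 0.30 for *alg-1*, −0.27 to 0.13 for *alg-5*, −0.027 to 0.20 for *prg-1* and −0.12 to 0.10 for *rde-1*.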
